A study of Arabidopsis thaliana with 12 samples.

Results

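GATA8 (AT3G54810, also named BME3) and 9 of its relatives in subfamily A of the Arabidopsis GATA transcription factors were followed through the first 8 min of a treatment of seedlings with H2O2. The members were the transcripts with the gene identifiers of GATA8, GATA1 (AT3G24050), GATA2 (AT2G45050), GATA4 (AT3G60530), GATA5 (AT5G66320), GATA7 (AT4G36240), GATA9 (AT4G32890), GATA10 (AT1G08000), GATA11 (AT1G08010) and GATA12 (AT5G25830). All 10 were found among the 20972 transcripts with deposited values. GATA3 and GATA6, which are also placed in subfamily A, were not in this list and are given with the other GATA genes. The question was whether the rise of GATA8 was shared by its relatives.

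Seedlings of the Col accession, 5 days old and grown in liquid medium under constant light, were frozen at 2, 4 or 8 min after the addition of 1 mM H2O2, and at 0 min after the addition of distilled water. Each time point had 3 libraries, each from a pool of whole seedlings in a repeat of the experiment, which makes 12 libraries in all. Seedlings kept in water for 2, 4 or 8 min are not analysed here, and the effect of H2O2 and that of the time since liquid was added cannot be told apart. In RNA from whole seedlings, fewer cells of a type and less RNA per cell cannot be told apart either. Between 13558388 and 26618274 reads per library fell on the listed transcripts, and the deepest library was replicate 2 after 8 min. The 3 shoot markers and the 3 root markers examined were present in all libraries, and the 3 flower markers were not listed. The summed normalized count of 4 mature seed transcripts (CRA1, CRU3, SESA1 and OLEO1) ran from 36326 to 40507 at 0 min, 28115 to 51446 after 2 min, 4599 to 49092 after 4 min and 14742 to 71591 after 8 min. The sum thus differed more between libraries after 4 and 8 min than at 0 min.

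GATA factors bind DNA at sites with the core letters GATA through a zinc finger in which cysteines hold a zinc ion. In plants they are known for roles in light responses, greening, germination and nitrogen metabolism. GATA8 is a positive regulator of seed germination. GATA2 promotes light-type seedling development and is held in check by brassinosteroid signalling, GATA4 is its close relative, and GATA12 is linked to seed dormancy and gibberellin.

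The finger is the part that all members share, and its coding sequence shows which of them are near copies whose reads could be confused. In each of the 10 genes it covers 78 bases, from the first to the last of 4 cysteine codons, with a loop of 18 residues between the cysteine pairs. The stretches of GATA8, of the relative closest to it in change (GATA1), of the pair with the largest differences from it after 8 min (GATA2 and GATA4) and of the neighbouring genes GATA10 and GATA11 are printed in coding orientation from the RefSeq annotation of TAIR10.1, with the cysteine codons in capitals.
GATA8: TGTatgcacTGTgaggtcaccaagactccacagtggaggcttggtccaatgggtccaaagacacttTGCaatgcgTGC
GATA1: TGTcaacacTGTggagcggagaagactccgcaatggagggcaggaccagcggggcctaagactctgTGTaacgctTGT
GATA2: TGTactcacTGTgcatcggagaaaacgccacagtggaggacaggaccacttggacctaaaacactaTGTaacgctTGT
GATA4: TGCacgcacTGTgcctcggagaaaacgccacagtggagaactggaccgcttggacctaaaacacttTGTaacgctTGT
GATA10: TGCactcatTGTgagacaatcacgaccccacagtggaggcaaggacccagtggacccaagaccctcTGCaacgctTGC
GATA11: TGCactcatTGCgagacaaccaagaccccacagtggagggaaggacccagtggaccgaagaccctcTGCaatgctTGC

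GATA8 differed from its relatives at 21 (GATA11) to 26 (GATA1, GATA2 and GATA4) of the 78 bases. Some relatives were closer to each other. GATA10 and GATA11 differed at 6 bases, GATA2 and GATA4 at 7, and GATA9 and GATA12 at 13. After translation, GATA8 differed from GATA11 at 4 of 26 residues and from each other member at 5 or 6. The stretch of GATA8 lies at chr3:20297958-20298035 on the plus strand, in the coding part of a gene that spans chr3:20296130-20298827 with 3 exons in the transcript used and 2 annotated transcripts. GATA10 (chr1:2483240-2485726) and GATA11 (chr1:2485848-2488085) are neighbours on the minus strand.

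No stretch of 50 bases was shared between the transcripts of any of the members, so reads could not pass from one to another through identical sequence of that length. GATA10 was the exception for another gene. Of its 2282 stretches of 50 bases, 395 (17.3%) lie on the opposite strand in AT1G08005, which is not among the listed transcripts. Whether reads were counted by strand is not given in the sources used here, so the counts of GATA10 are uncertain over that stretch. Only identical stretches were searched for, while the alignment allowed mismatches. The search therefore does not settle confusion between near copies such as GATA10 and GATA11.

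Transcripts of GATA8 were found at 607, 594 and 538 normalized counts at 0 min, at 621, 509 and 706 after 2 min, at 746, 687 and 758 after 4 min, and at 799, 825 and 767 after 8 min, for replicates 1, 2 and 3. A normalized count is the number of reads on a gene divided by a size factor of its library. At 4 and 8 min all 3 libraries were above all 3 at 0 min, while after 2 min replicate 2 was the lowest of the 12 libraries and replicates 1 and 3 were above each library at 0 min. Between 396 and 1285 reads per library stood behind these values.

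**Figure D1:**
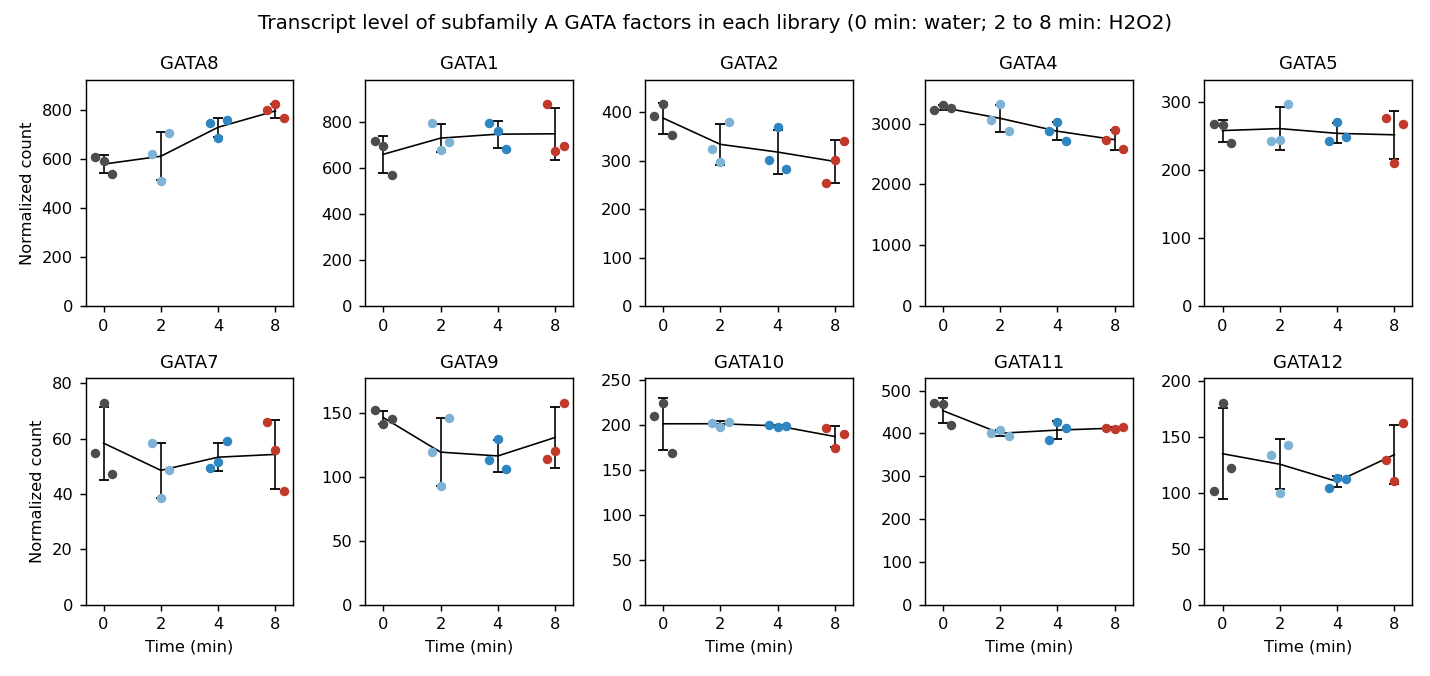
Normalized count of each subfamily A member in each library (points) in water (0 min) and after 2, 4 and 8 min in H2O2, with lines joining the means and bars of 1 SD (n = 3); each vertical axis starts at 0. GATA8 lies at 767 to 825 after 8 min and at 538 to 607 at 0 min, GATA4 at 2576 to 2901 after 8 min and at 3222 to 3304 at 0 min.

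The log2 change of GATA8 against 0 min, taken on the scale log2(normalized count + 1), was 0.07 after 2 min (95% interval -0.15 to 0.29), 0.33 after 4 min (0.11 to 0.55) and 0.46 after 8 min (0.24 to 0.68). With limma and Benjamini-Hochberg adjustment over the 19485 transcripts tested, the adjusted p was 0.847 after 2 min, 0.148 after 4 min and 0.0452 after 8 min. By that fit GATA8 rose 1.38-fold after 8 min. A larger change after 8 min was found for 4.11% of the transcripts tested. In the same fit 1.29% of the transcripts rose after 8 min and 0.0513% fell. The call was close to the threshold of 0.05: when the 12 libraries were left out in turn it was lost in 10 fits, with log2 changes of 0.41 to 0.49 and adjusted p from 0.0521 to 0.206. It was kept only without replicate 2 (adjusted p = 0.0111) or without replicate 3 (0.0214) after 2 min. It was also lost after quantile normalization (adjusted p = 0.0529) and with a block for the replicate number (0.0501). DESeq2 on the recovered reads gave an adjusted p of 0.00376, and called 1.92% of the transcripts higher and 0.4% lower after 8 min.

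Where limma called 1.29% of all transcripts higher and 0.0513% lower after 8 min, none of the 9 relatives passed the threshold (0 of 9). At an unadjusted p under 0.05, 2 of them passed, GATA2 and GATA4, both with lower levels, where 13.7% of all transcripts tested passed in either direction. DESeq2 called GATA4 lower (adjusted p = 0.0453), where it called 0.4% of all transcripts lower. With edgeR 0 relatives passed at any time point, against 1.57% of all transcripts. The median log2 change of the 10 members after 8 min was -0.10, against -0.0046 for all transcripts tested, with 3 members above 0 and 7 below 0. All 3 libraries after 8 min were above all 3 at 0 min for 1 member, GATA8, against 8.56% of the transcripts tested. They were below for 3 members, GATA2, GATA4 and GATA11, against 8.23%.

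Transcripts of GATA2, the factor of light-type development, stood at 393, 417 and 353 normalized counts at 0 min, 323, 297 and 380 after 2 min, 301, 370 and 282 after 4 min, and 253, 300.5 and 340 after 8 min. Their log2 change after 8 min was -0.38 (95% interval -0.67 to -0.10, adjusted p = 0.221 with limma). After 8 min the 3 libraries were all below those at 0 min, and the highest of them lay close to the lowest at 0 min.

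GATA4, the close relative of GATA2, was the most abundant member. It stood at 3222, 3304 and 3260 normalized counts at 0 min, 3053, 3321 and 2883 after 2 min, 2880.3, 3022 and 2719 after 4 min, and 2728, 2901 and 2576 after 8 min. The libraries after 4 min and after 8 min were all below those at 0 min. Its log2 change was -0.08 after 2 min, -0.18 after 4 min and -0.26 after 8 min (95% interval -0.41 to -0.10 after 8 min), with adjusted p of 0.698, 0.233 and 0.123 in the same order from limma.

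Among the listed relatives, GATA1 and GATA12 alone had a positive log2 change after 8 min. GATA3 and GATA6, also placed in subfamily A but outside the list, had positive changes as well (given below). GATA1 had 715, 694 and 567 normalized counts at 0 min, 796, 679 and 711 after 2 min, 795, 761 and 682 after 4 min, and 877, 671 and 694 after 8 min. The groups overlapped at each time point, and the log2 change was 0.15 after 2 min and 0.18 at both 4 and 8 min (95% interval -0.07 to 0.43 after 8 min, adjusted p = 0.525 with limma).

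GATA12, the factor linked to seed dormancy, had its widest spread at 0 min, with 102, 181 and 123 normalized counts. It had 134, 100.3 and 143 after 2 min, 104, 114 and 113 after 4 min, and 129, 110.4 and 163 after 8 min. Its log2 change after 8 min of 0.01 had a 95% interval from -0.42 to 0.45, the upper end of which lies next to the change of GATA8.

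GATA11 had 472, 469 and 419 normalized counts at 0 min, 400.2, 408 and 394 after 2 min, 385, 426 and 412 after 4 min, and 412, 410.3 and 415 after 8 min. The libraries after 2 min and after 8 min lay below all 3 at 0 min, and the log2 change was -0.18 after 2 min, -0.15 after 4 min and -0.13 after 8 min (adjusted p = 0.368, 0.345 and 0.449 with limma). The SD of 2.25 after 8 min lies under the counting error of such read numbers and understates the spread.

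GATA10, the neighbour of GATA11, ran from 169 to 225 normalized counts over the 12 libraries, with log2 changes of 0.01, -0.01 and -0.10 at 2, 4 and 8 min. GATA5 ran from 211 to 296, with log2 changes of 0.01, -0.02 and -0.04. GATA9 ran from 92.6 to 158, with log2 changes of -0.32, -0.33 and -0.17. GATA7, with 30 to 87 reads per library, was the least abundant member, and its 95% interval after 8 min ran from -0.58 to 0.37.

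**Figure D2:**
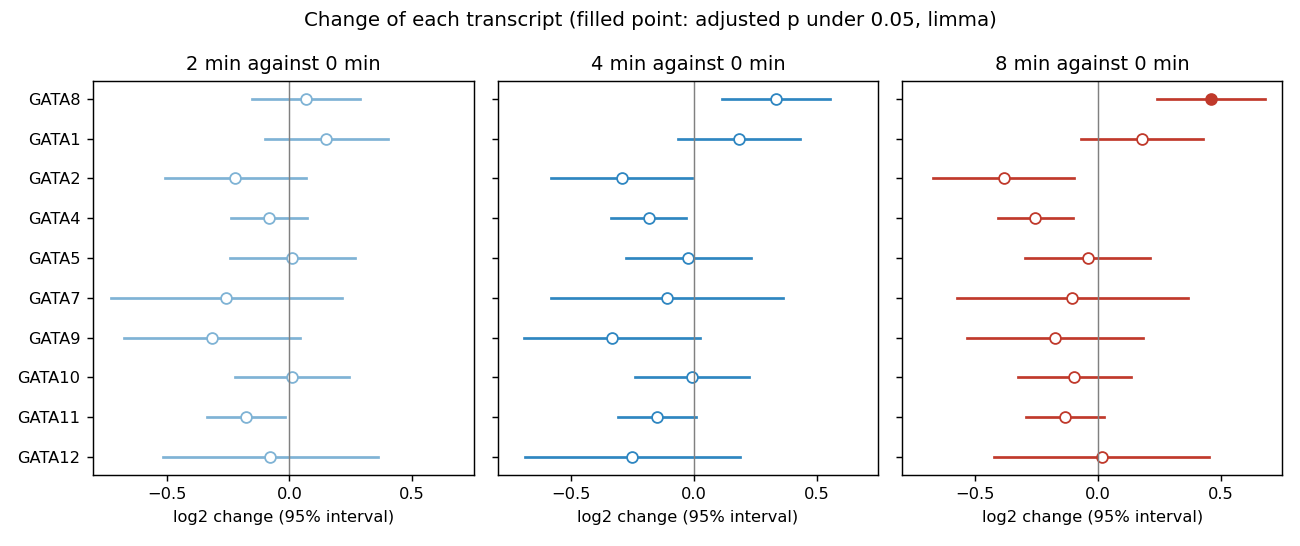
The log2 change of each member at 2, 4 and 8 min against 0 min (points) with its 95% interval from limma (lines); a filled point passed an adjusted p of 0.05. The 1 filled point is GATA8 after 8 min, with 0.46, and the intervals of GATA2 and GATA4 after 8 min lie below 0.

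After 4 min 0 members passed the threshold with limma, edgeR or DESeq2, while 0.754% of the transcripts tested rose and 0.0565% fell with limma. At an unadjusted p under 0.05, GATA8 was higher and GATA2 and GATA4 were lower, 3 members where 15.6% of all transcripts passed. All 3 libraries were above those at 0 min for 1 member (GATA8), against 10.5% of the transcripts, and below for 2 (GATA4 and GATA9), against 9.5%. After 2 min limma called 0% of all transcripts higher and 0% lower, and neither limma, DESeq2 nor edgeR called a member. At an unadjusted p under 0.05, 1 member passed after 2 min (GATA11, lower), where 12% of all transcripts did. The libraries after 2 min were below all 3 at 0 min for GATA11 alone, against 9.24% of the transcripts, and above them for 0 members, against 9.83%. Over the 3 time points together, 1 of the 10 members and 1.56% of the transcripts tested passed with limma.

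Whether the change of GATA8 differed from that of a relative was tested directly. The log2 ratio of GATA8 to each of the 19484 other transcripts tested was taken within each library, and its change against 0 min was fitted with limma and adjusted over all of them. Each ratio holds the same values of GATA8, so the tests share its error. The rise of GATA8 in these data was known before it was set as the reference, so the p-values of the differences carry that choice.

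After 8 min the change of GATA8 was larger than that of 7 of the 9 relatives. The difference in log2 change was 0.84 for GATA2 (95% interval 0.51 to 1.18, adjusted p = 0.00172), 0.72 for GATA4 (0.41 to 1.03, adjusted p = 0.00242), 0.63 for GATA9 (0.25 to 1.02, adjusted p = 0.00778) and 0.59 for GATA11 (0.28 to 0.90, adjusted p = 0.00421). It was 0.56 for GATA7 (0.09 to 1.04, adjusted p = 0.039), 0.56 for GATA10 (0.22 to 0.89, adjusted p = 0.00824) and 0.50 for GATA5 (0.17 to 0.83, adjusted p = 0.0124). The difference from GATA1 was 0.28 (-0.03 to 0.59, adjusted p = 0.101) and that from GATA12 was 0.45 (0.03 to 0.86, adjusted p = 0.0574). The adjusted test thus did not separate GATA8 from GATA1 or GATA12, and the interval for GATA1 includes 0.

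The same test placed GATA8 above 60.4% of all transcripts tested and below 0.837%. The 7 of 9 relatives stand near that background, so GATA8 parted from its relatives much as it parted from most transcripts in the seedlings. In single libraries, the ratio of GATA8 to a relative was higher in all 3 libraries after 8 min than in all 3 at 0 min for the same number of relatives, 7 of 9, against 69.5% of all transcripts. The ratio of GATA8 to GATA4 was 0.285 to 0.298 after 8 min and 0.165 to 0.189 at 0 min. That to GATA2 was 2.25 to 3.14 after 8 min and 1.42 to 1.54 at 0 min. That to GATA1 was 0.911 to 1.23 after 8 min and 0.850 to 0.949 at 0 min, and these overlapped.

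**Figure D3:**
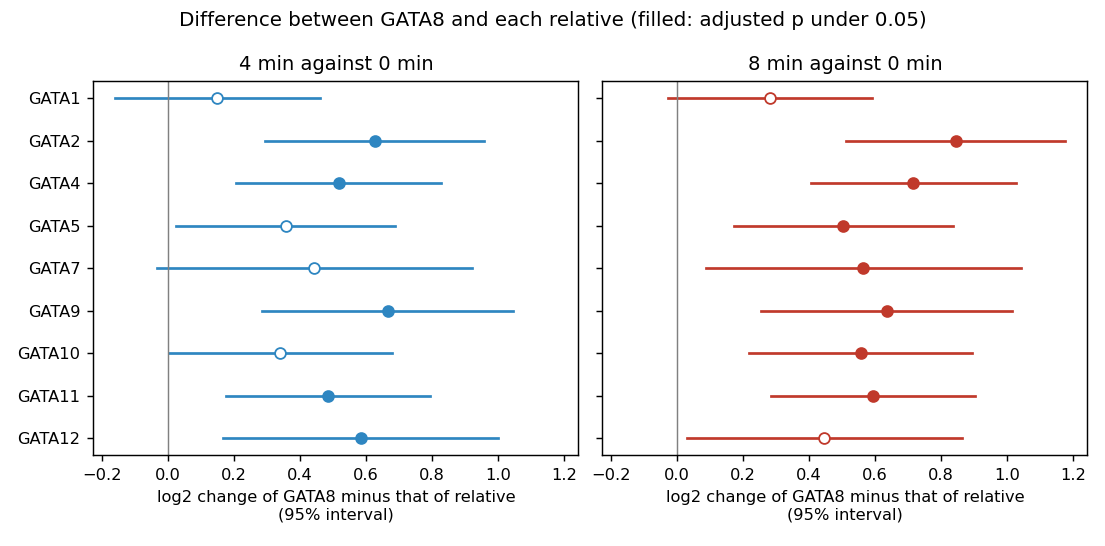
The log2 change of GATA8 minus that of each of 9 relatives after 4 min and after 8 min against 0 min (points), with the 95% interval from limma (lines); a filled point passed an adjusted p of 0.05 over all transcripts tested. After 8 min 7 of 9 points are filled, with the largest difference, 0.84, for GATA2.

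After 4 min the change of GATA8 was larger than that of 5 of the 9 relatives, with 25% of all transcripts passing in that direction. These were GATA9 (difference 0.67, adjusted p = 0.021), GATA2 (0.63, adjusted p = 0.0163), GATA12 (0.58, adjusted p = 0.0392), GATA4 (0.52, adjusted p = 0.024) and GATA11 (0.48, adjusted p = 0.0283). After 2 min 0 differences passed with limma, 1 did at an unadjusted p under 0.05 (GATA9, difference 0.38), and its adjusted p of 0.689 was the lowest.

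Per kilobase of exon, a scale on which genes can be set against each other, GATA4 led the members at each time point. It had a mean of 2227 normalized counts per kilobase at 0 min, 2106 after 2 min, 1962 after 4 min and 1867 after 8 min. GATA1 was second at each time point, with 467, 517, 529 and 530.0 in the same order. GATA8 had 275 at 0 min and 290.4 after 2 min. At 0 min its range overlapped that of GATA11, which overlapped that of GATA2, and after 2 min it overlapped that of GATA2. After 4 min (347) and 8 min (378) GATA8 came right after GATA1, above GATA11 (250.1 and 253), and the ranges did not overlap. GATA7 was last at each time point, with 47.1 at 0 min and 43.9 after 8 min. After 8 min GATA5, GATA9, GATA12 and GATA10 came below GATA11 and GATA2, in that order. The ranges of neighbours overlapped from GATA5 to GATA10 and between GATA11 and GATA2, but not between GATA2 and GATA5.

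Over the 12 libraries, the log2 levels of GATA8 and its relatives were compared as a description, with no test, because the libraries of a time point share their treatment. Among the members, GATA1 had the highest Pearson r with GATA8, 0.45 (Spearman rho 0.24). It became 0.05 without the pair of libraries whose GATA8 level was farthest from the median. GATA4 had the lowest, -0.88 (Spearman rho -0.87), and -0.84 without the same pair. Of the 16377 transcripts with a mean of at least 50 that were compared, 99.9% had a higher r with GATA8 than GATA4 had. After the mean of each time point was removed, the r of GATA4 was -0.60, and the highest r among the members was that of GATA7 (0.53), followed by GATA9 (0.47), with 0.28 for GATA1. By Spearman's rho over the 12 libraries GATA7 (0.28) also stood above GATA1. After 2 min, where GATA8 spread most, the library with the lowest GATA8 level had the highest GATA4 level and the reverse.

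**Figure D4:**
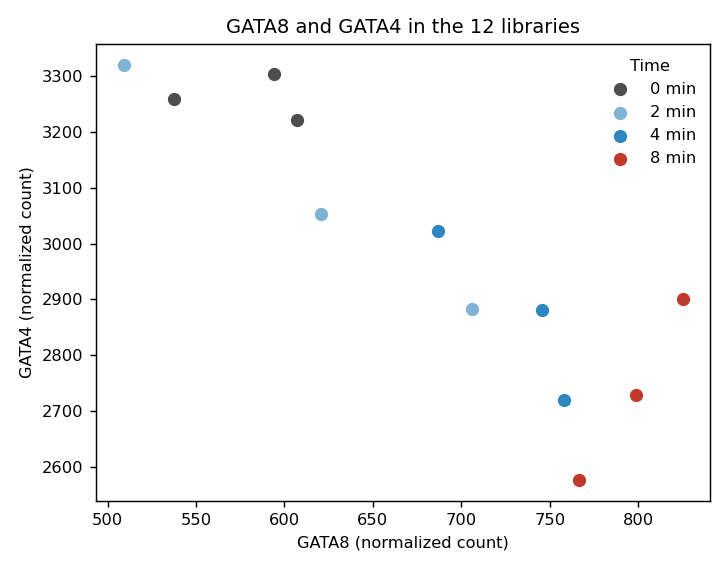
Normalized count of GATA4 (vertical axis) against that of GATA8 (horizontal axis) in the 12 libraries, coloured by time; neither axis starts at 0. The libraries after 8 min lie at 767 to 825 for GATA8 and 2576 to 2901 for GATA4, and those at 0 min at 538 to 607 for GATA8 and 3222 to 3304 for GATA4.

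The transcripts with the highest r with GATA8 over the 12 libraries were also taken, with the members left out of the search. They were AT5G43620 (r = 0.91), AT5G41060 (0.91), BZIP53 (AT3G62420, 0.90), AT4G22820 (0.90) and AT1G66500 (0.89). With the mean of each time point removed, their r was 0.67, 0.80, 0.59, 0.65 and 0.53 in the same order. BZIP53 is a transcription factor of the basic leucine zipper class. The annotation gives AT5G43620 and AT1G66500 as pre-mRNA cleavage complex II proteins, AT5G41060 as a DHHC-type and AT4G22820 as an A20/AN1-like zinc finger protein. After 8 min the log2 change was 1.99 for AT5G43620 (adjusted p = 3.25e-05), 2.11 for AT1G66500 (adjusted p = 2.12e-05) and 0.79 for BZIP53 (adjusted p = 0.00027), all with limma. It was 0.18 for AT5G41060 (adjusted p = 0.364) and 0.26 for AT4G22820 (adjusted p = 0.15), which did not pass. These transcripts were picked for following GATA8 in the same libraries, so their changes are given as a description.

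The spread of the mature seed transcripts was set against the levels of the members. With the log2 sum of the 4 seed transcripts, GATA8 had an r of -0.19 over the 12 libraries and 0.14 within time points, given as a description. Within time points, r was -0.66 for GATA5, -0.61 for GATA2 and -0.61 for GATA9. With that sum as a covariate, chosen after the data were seen, GATA8 had a log2 change of 0.47 (adjusted p = 0.0439 with limma). Without the covariate the values were 0.46 and 0.0452. Whether the seed transcripts bear on the rise of GATA8 was not tested.

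Of 20 other GATA genes, 16 were listed and 15 tested. GATA13, GATA14, GATA23 and GATA29 are not among the listed transcripts, and HAN was under the filter on low values. After 8 min their median log2 change was 0.10, with 10 above 0 and 5 below 0. With limma 0 passed, where 1.29% of all transcripts were called higher and 0.0513% lower. At an unadjusted p under 0.05, 3 were higher, where 13.7% of all transcripts passed in either direction. All 3 libraries after 8 min were above all 3 at 0 min for 5 of the 15, against 8.56% of the transcripts tested. These were GNC, CGA1, GATA16, GATA26 and GATA27. They were below for 1, GATA17, against 8.23%. DESeq2 called GNC and CGA1 higher after 8 min, against 1.92% of all transcripts, while edgeR called 0 at any time point, against 1.57% in either direction. GATA3 and GATA6, which are also placed in subfamily A, had log2 changes of 0.14 each after 8 min (adjusted p = 0.734 and 0.66 with limma).

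GNC, a subfamily B factor that promotes greening and chloroplast development, passed after 4 min. It had 585, 606 and 602 normalized counts at 0 min, 839, 753 and 907 after 2 min, 889, 851 and 756 after 4 min, and 915, 711 and 767 after 8 min. Each library of H2O2-treated seedlings was above all 3 at 0 min. The log2 change was 0.47 after 2 min (adjusted p = 0.164), 0.47 after 4 min (adjusted p = 0.0467) and 0.41 after 8 min (adjusted p = 0.0702), all with limma. With libraries left out in turn, the call after 4 min was kept only without replicate 1 or without replicate 2 after 8 min, and edgeR gave 0.0504.

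CGA1, the close relative of GNC with an overlapping role, was named after its values were seen. It had 467, 488 and 459 normalized counts at 0 min, 770.1, 715 and 728 after 2 min, 815, 642 and 597 after 4 min, and 873, 553 and 596 after 8 min. All 9 libraries of H2O2-treated seedlings were above those at 0 min. Its log2 change was 0.64 after 2 min, 0.53 after 4 min and 0.49 after 8 min, with adjusted p of 0.199, 0.119 and 0.158 from limma. DESeq2 called both genes higher after 2 min (adjusted p = 0.0127 for GNC and 0.017 for CGA1, with 0.272% of all transcripts called higher) and after 4 min (0.00365 and 0.0322, with 1.89% called higher). Separate limma fits also called both after 2 min, but the share of all transcripts that those fits called is not given here. After 2 min GNC and CGA1 stood above 0 min in every library, a pattern found for 9.83% of all transcripts, where GATA8 overlapped. After 2 min the change of GATA8 minus that of CGA1 was -0.58 (95% interval -0.92 to -0.24, adjusted p = 0.214 with limma) and minus that of GNC was -0.41 (-0.71 to -0.11, adjusted p = 0.409), and neither difference passed. The same difference after 8 min was -0.03 for CGA1 (-0.37 to 0.32, adjusted p = 0.89) and 0.05 for GNC (-0.25 to 0.35, adjusted p = 0.748). At that time the rise of GATA8 was thus not separated from that of either gene.

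**Figure D5:**
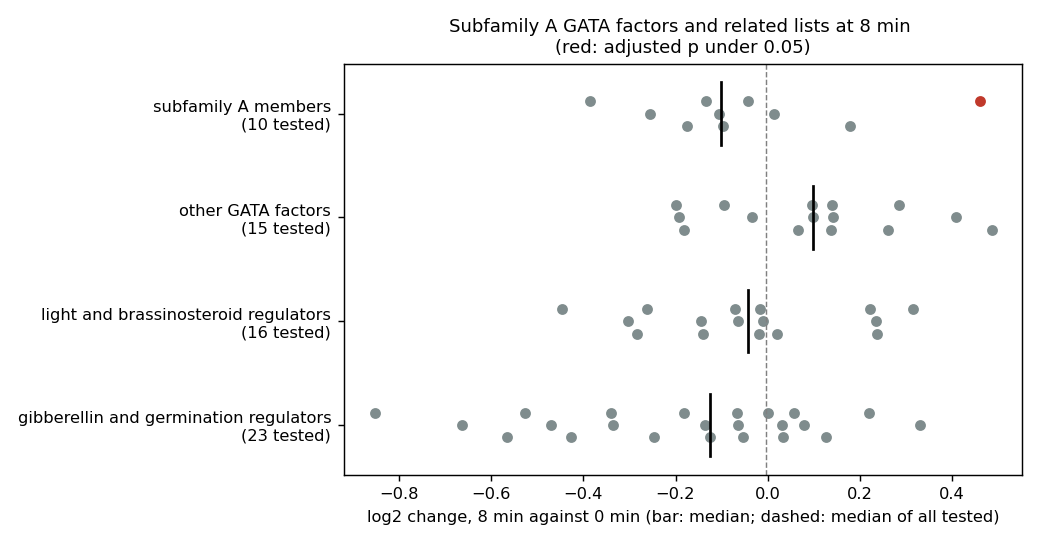
The log2 change after 8 min against 0 min of each tested transcript (points) in 4 lists, with the median of each list (bar) and that of all transcripts tested (dashed line, -0.0046); red points passed an adjusted p of 0.05 with limma. The 1 red point is GATA8, and the list medians are -0.10 for the 10 subfamily A members, 0.10 for other GATA factors (which hold GATA3 and GATA6), -0.04 for light and brassinosteroid regulators and -0.13 for gibberellin and germination regulators.

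Regulators of light and brassinosteroid responses, the setting in which GATA2 is known to act, were listed in full (16 of 16). With limma 0 passed at any time point, against 1.56% of all transcripts tested. After 8 min 1 was higher and 3 were lower at an unadjusted p under 0.05, where 13.7% of all transcripts passed. After 4 min 2 were higher and 5 were lower by the same measure, where 15.6% passed. The lowest p-values after 8 min were those of SPA1, a partner of the ubiquitin ligase COP1, and of PIF4, a phytochrome-interacting factor. SPA1 had a log2 change of 0.23 (adjusted p = 0.234 with limma). PIF4 had 814, 949 and 945 normalized counts at 0 min, 529.8, 662 and 606 after 2 min, 575, 627 and 641 after 4 min, and 515, 907 and 618 after 8 min. Its log2 change after 8 min was -0.45 (adjusted p = 0.235 with limma), and replicate 2 after 8 min lay within the range of 0 min. DESeq2 called 2 of the 16, PIF4 and PIF1, both lower after 4 min (adjusted p = 0.0353 and 0.0326), where it called 0.642% of all transcripts lower. PIF1 is another phytochrome-interacting factor. With edgeR 0 of the list passed at any time point, against 1.57% of all transcripts.

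Regulators of gibberellin and germination, the setting in which GATA8 and GATA12 are known to act, were also listed in full (23 of 23). With limma 0 passed at any time point, against 1.56% of all transcripts tested. After 8 min 1 was higher and 5 were lower at an unadjusted p under 0.05, where 13.7% of all transcripts passed. The median log2 change of the list was then -0.13. After 4 min 1 was higher and 8 were lower by the same measure, where 15.6% passed, with a median of -0.12. GID1A, a gibberellin receptor, had a log2 change of 0.33 (adjusted p = 0.146 with limma). GA20OX2, an enzyme of gibberellin synthesis, had 97.9, 80.8 and 132 normalized counts at 0 min, 56.0, 59.1 and 81.7 after 2 min, 44.9, 78.2 and 58.1 after 4 min, and 39.5, 71.9 and 60.8 after 8 min. Its log2 change after 8 min was -0.85 (adjusted p = 0.165 with limma). DESeq2 called 1 of the 23, GA3OX1, which makes active gibberellin, as lower after 4 min (log2 change -0.99, adjusted p = 0.0102). It called 0.642% of all transcripts lower at that time. With edgeR 0 of the list passed at any time point, against 1.57% of all transcripts.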

How the data were processed

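RNA of the 12 libraries was sequenced from a single end. According to the methods, reads were quality-checked with FastQC 0.11.7, aligned to TAIR10 with STAR 2.4.0.1 and normalized with DESeq2 1.20.0. The counting program is not given in the sources used here. The deposited signal is the authors' normalized count, that is, reads on a gene over the size factor of the library. Since 100% of the values came out as whole reads within 1e-06, the reads were recovered. Values were tested on log2(value + 1) with limma 3.58.1, which fitted the 12 libraries jointly with a mean-variance trend. Transcripts with a mean under 10 were left out, and 19485 stayed. Benjamini-Hochberg adjustment was made within each comparison (threshold 0.05). An exact permutation test of 3 libraries against 3 cannot go below p = 0.1 and was not used. Because the unit is normalized, count tests of the recovered reads (edgeR 4.0.16, DESeq2 1.42.0) were alternatives. The others were pseudocounts of 0.1 and 5, a filter at 50 or none, quantile normalization, separate fits, a replicate block, a seed marker covariate and leaving out each library.

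The members and lists were chosen with earlier results of these data known. Named were all members, the transcripts of the other lists past the threshold or, failing that, the pair with the lowest p at 8 min, and the 5 other transcripts most correlated with GATA8. Replicates are repeats of the experiment. Sequences and coordinates are from RefSeq on TAIR10.1 and matched all 10 members. On simulated reads with 200 transcripts changed 2-fold at 8 min, limma recovered 91%, DESeq2 92.5% and edgeR 91%. The 2-fold changes set there were larger than that of any member, so these recoveries do not extend to the members. Of the transcripts called in that simulation, 2.15% were false with limma, 10.6% with DESeq2 and 2.67% with edgeR. The false share of DESeq2 was above the threshold set for the adjusted p, so calls made by DESeq2 alone are less certain. For the difference fit, 93.5% of the intervals held the true value. R 4.3.3, Python 3.11.15 and matplotlib 3.10.9 were used.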

Additional observations from a re-analysis of the deposited data

How the results depend on the processing

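The log2 change of GATA8 at 8 min kept its direction in all 22 alternatives. It was no longer past the threshold in 12 of the 22. These were quantile normalization (0.45, adjusted p = 0.0529 with limma), the replicate block (0.46, adjusted p = 0.0501) and 10 of the 12 fits with a library left out. In those 10 fits the change was 0.41 to 0.49 and the adjusted p 0.0521 to 0.206. Same-numbered libraries did not deviate together (correlations from -0.328 to 0.255 over 18 pairs), so the replicate numbers were not taken as pairs. At 2 min the change of GATA8 ran from -0.042 to 0.19 when each library was left out.

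The number of members called at any time point was 0 after quantile normalization, 0 with the replicate block, 2 with DESeq2 (GATA8 and GATA4) and 0 to 1 with a library left out. The number of relatives from which GATA8 differed at 8 min was 5 to 8 with a library left out. Without replicate 2 at 8 min it was 5 (GATA5 and GATA7 no longer passed), and with the seed marker covariate it was 8 (GATA12 passed). The number of other GATA factors called was 2 with DESeq2, 2 with separate fits, 2 with the replicate block, 0 with edgeR, 0 with the seed marker covariate and 0 to 2 with a library left out. For the light and brassinosteroid list it was 2 with DESeq2, 1 with separate fits, 1 with the replicate block and 0 to 1 with a library left out. For the gibberellin and germination list it was 1 with DESeq2, 1 with the replicate block, 1 with the seed marker covariate and 0 to 1 with a library left out. The share of all transcripts passing is not given for quantile normalization, the separate fits, the replicate block, the covariate or the left-out fits. Counts under those settings therefore cannot be set against a background.

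GATA12 at 8 min was -0.012 after quantile normalization, -0.0089 with DESeq2, -0.0068 with edgeR, -0.025 with the seed marker covariate and -0.17 to 0.24 with a library left out. GATA5 ran from -0.11 to 0.078 and GATA7 from -0.25 to 0.078 with a library left out. The causes of these changes were not tested. Depth limits GATA7 most, with 30 to 87 reads per library.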
